A study of Mus musculus with 14 samples.

Results

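Tetraspanins are small membrane proteins that span the membrane 4 times and gather other surface proteins, such as integrins, proteases and growth factor precursors, into lateral assemblies. Uroplakins form the rigid plaques on the apical face of the bladder lining. Upk1a and Upk1b are themselves tetraspanins, and the single-span uroplakins Upk2, Upk3a and Upk3b travel to the surface as partners of these tetraspanins.

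The genes described here are those with a single-symbol probe set named Tspan plus a number, or named Cd9, Cd37, Cd53, Cd63, Cd81, Cd82, Cd151, Upk1a, Upk1b, Upk2, Upk3a or Upk3b. The rule itself reads names and no measured value. It gave 31 genes of 22180 on the array, 28 tetraspanins and 3 single-span uroplakins, read by 32 probe sets. Cd9 had a bright and a dim probe set, and the brighter one stood for it.

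Luminal cells were sorted from mammary glands of adult virgin females, 4 to 6 months old, of the strains BALB/cByJ JAX and C57Bl/6, and the labels name no transgene or treatment. Lu-neg cells (LuNeg in the labels) carried CD24, an epithelial surface protein, and lacked the adhesion molecule ICAM-1, whereas Lu-pos cells (LuPos) carried both. There were 7 pools of at least 12 glands, and each pool gave 1 Lu-neg and 1 Lu-pos array, so that the comparison was made within pools. The sources used here do not say which pool came from which strain. Each array measured log2 intensities of whole-transcript probe sets from amplified RNA of many cells, so that fewer cells of a type and less RNA per cell cannot be told apart.

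The array medians lay between 3.46 and 3.58. In Lu-pos, 7 of 7 measured progenitor markers were higher and 7 of 7 hormone-sensing markers were lower. The study reports Elf5, Hey1, Aldh1a3, Esr1, Pgr, Wnt4, Tnfsf11 and Prom1 among the genes that differ on these arrays. These counts are therefore not independent evidence of the sort. Of 5 luminal markers, Krt19 was lower in Lu-pos (log2 fold change -0.49, adjusted p = 0.0117 from limma) and the other 4, Krt8 and Krt18 among them, were not called. Of other cell types, 0 of 10 basal, 0 of 11 immune and 0 of 3 mesothelial markers were called by limma, whereas 1 of 9 endothelial genes (Vwf) and 1 of 8 fibroblast and adipocyte genes (Dcn) were lower in Lu-pos. The summed endothelial level ran from 7.54 to 9.61 in Lu-neg and from 6.80 to 9.43 in Lu-pos on the log2 scale, and the summed fibroblast and adipocyte level from 8.55 to 11.31 and from 9.25 to 10.97. The summed basal level ran from 7.65 to 10.98 and from 8.78 to 10.25, with the Lu-neg arrays of pools 2 and 7 highest. Within pools this sum was higher in Lu-pos in all but pools 2 and 7. The median log2 fold change of the 10 basal markers was 0.15, with Krt17 highest at 1.59 (SE 0.61, adjusted p = 0.139 from limma). Their missed calls do not show equal levels. In the study's gating, basal cells also carried CD24 and ICAM-1. The part of these markers in the results was not tested. Krt5 and Prlr were not analysed here. On the second principal component of 11028 genes above background, which held 14.7% of the variance, the arrays of pools 1 to 3 lay apart from those of pools 4 to 7 in both populations, and the values of called members are therefore also given within each of these sets.

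Lu-pos cells had more RNA of the tetraspanin genes Tspan8, Cd81 and Tspan33, and less of the uroplakin genes Upk3a and Upk2 and of the tetraspanin genes Tspan1, Tspan13, Tspan3, Tspan9, Cd151, Cd82, Tspan17 and Cd9. By limma with the pool as a block, at an adjusted p under 0.05 over all genes, 3 of the 31 rose and 10 fell in Lu-pos. Of all genes tested 4.35% were higher and 7.19% lower. With a change of at least 1.5-fold as well, 3 were higher and 7 lower, against 2.90% and 4.29% of all genes. With the arrays scaled to 6 housekeeping genes, 6 members were higher and 7 lower. Tspan2, Tspan6 and Tspan15 joined the rises, and Cd9, Cd151 and Tspan17 left the falls. That scaling moved the median of all genes by 0.123 and the share of rises among all called genes from 37.7% to 64.5%. The calls of Cd9, Cd151, Tspan33 and Tspan17 were the least stable under the alternatives given below. Errors are standard errors (SE) of the fit. The median log2 fold change of the 31 was -0.08, beside -0.02 over all genes. The arrays of the populations did not overlap for 5 of the 31 genes, Tspan1, Tspan13, Tspan3, Cd82 and Cd81, and for 3.01% of all genes. Of the 31, 8 lay under the background level of 3.73 in both populations, leaving 23 above it in at least 1. The background level is the 95th percentile of the mean intensities of 1390 olfactory and vomeronasal receptor genes.

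**Figure D1:**
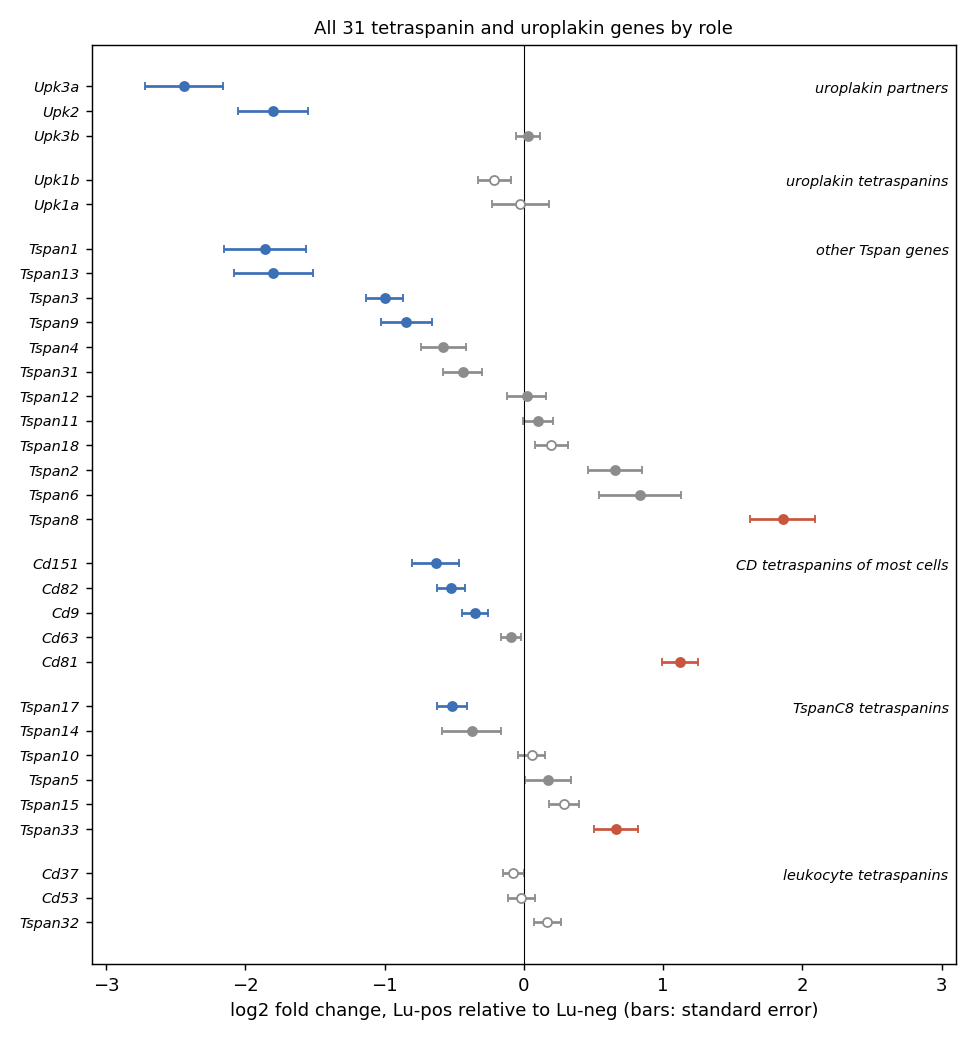
Log2 fold change of Lu-pos relative to Lu-neg for each of the 31 genes, grouped by role, with the standard error (SE) of the limma fit as bars. Blue points are genes called lower, red points genes called higher and grey points genes not called, and open points lie under the background level of 3.73 in both populations. The largest fall is Upk3a at -2.44 and the largest rise Tspan8 at 1.86.

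The stretches before the annotated start of 5 genes are shown because these genes had the largest changes in either direction among those with an entry in the RefSeq promoter table, Upk3a, Tspan1 and Tspan13 on the falling side and Tspan8 and Cd81 on the rising side. Each run is the 250 bases before the start in assembly GRCm38.p6, read 5′ to 3′ on the strand of the gene. Capitals mark matches to 8 short words: TATAAA on the strand of the gene, and on both strands the forkhead word TGTTTAC, the word AGATAA of the GATA factors, the ETS word AGGAAG, the AP-1 word TGANTCA, the nuclear receptor word AGGTCA, the E-box CACGTG and the GC box GGGCGG.
Upk3a, chr15:85016891-85017140, plus strand: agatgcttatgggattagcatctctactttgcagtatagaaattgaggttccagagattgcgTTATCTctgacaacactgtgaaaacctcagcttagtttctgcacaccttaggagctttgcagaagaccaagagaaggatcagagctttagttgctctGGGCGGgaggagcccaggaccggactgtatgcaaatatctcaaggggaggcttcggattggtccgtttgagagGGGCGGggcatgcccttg
Tspan1, chr4:116167599-116167848, minus strand: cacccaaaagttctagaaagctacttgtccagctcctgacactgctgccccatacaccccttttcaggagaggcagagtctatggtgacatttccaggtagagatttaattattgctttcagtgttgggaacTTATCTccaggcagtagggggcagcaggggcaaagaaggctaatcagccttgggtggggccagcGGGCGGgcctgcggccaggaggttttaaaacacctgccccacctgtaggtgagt
Tspan13, chr12:36042479-36042728, minus strand: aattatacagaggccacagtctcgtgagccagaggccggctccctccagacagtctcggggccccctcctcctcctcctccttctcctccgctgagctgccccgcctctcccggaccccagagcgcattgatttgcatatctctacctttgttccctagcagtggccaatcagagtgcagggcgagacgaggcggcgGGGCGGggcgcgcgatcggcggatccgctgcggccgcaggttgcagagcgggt
Tspan8, chr10:115817034-115817283, plus strand: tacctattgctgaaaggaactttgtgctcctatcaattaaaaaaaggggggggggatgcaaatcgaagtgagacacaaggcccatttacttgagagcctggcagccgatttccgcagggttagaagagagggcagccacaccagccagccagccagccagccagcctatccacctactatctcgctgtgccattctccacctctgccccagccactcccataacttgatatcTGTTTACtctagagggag
Cd81, chr7:143052500-143052749, plus strand: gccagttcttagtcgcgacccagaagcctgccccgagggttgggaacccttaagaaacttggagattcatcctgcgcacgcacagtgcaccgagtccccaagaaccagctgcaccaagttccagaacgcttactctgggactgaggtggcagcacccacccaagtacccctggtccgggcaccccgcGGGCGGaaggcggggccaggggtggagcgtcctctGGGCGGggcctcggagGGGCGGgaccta
The runs before Upk3a and Tspan1 each hold a GATA word on the opposite strand, read as TTATCT, a word found in 9.99% of all 32851 windows of this length. GC boxes stand in the runs of Upk3a, Tspan1, Tspan13 and Cd81, and in 32.74% of all windows. The run of Tspan8 holds a forkhead word 18 bases before the start, which 3.17% of all windows have, and no GC box. Base composition differed among these genes as well: the run of Tspan13 holds 21 CpG pairs, that of Cd81 16, that of Upk3a 6, that of Tspan8 4 and that of Tspan1 3, with a median of 6 over all windows. Over the 28 members with an entry, which have 38 annotated starts, a GC box stood in 16 windows, an ETS word in 13 (29.48% of all windows), a GATA word in 3, a nuclear receptor word in 3 (14.02% of all windows) and a forkhead word in 1. None of the 38 held TATAAA, which stood in 7.59% of all windows. These matches describe letters and do not show binding.

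Among the uroplakins, the single-span partners Upk3a and Upk2 were both lower in Lu-pos. Upk3a, which in the bladder pairs with Upk1b, had values from 8.14 to 9.85 with a median of 9.68 in Lu-neg, and from 4.41 to 8.40 with a median of 7.37 in Lu-pos. The ranges overlapped only between the Lu-neg array of pool 2 and the Lu-pos array of pool 7, and within its own pool every Lu-pos array was lower. The exact sign-flip test over 7 pools cannot give a p under 0.0156, which is the value of each gene that moved 1 way in all pools. Upk3a fell by 2.44 on the log2 scale (SE 0.28, adjusted p = 0.000969 from limma), 5.43-fold, and was number 3 among all 22180 genes by size of fall. The log2 fold change was -3.08 in pools 1 to 3 and -1.97 in pools 4 to 7.

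Upk2, which in the bladder pairs with Upk1a, ranged from 8.21 to 9.13 with a median of 8.68 in Lu-neg and from 5.56 to 8.48 with a median of 6.68 in Lu-pos. It was lower in Lu-pos in 7 of 7 pools, but in pool 7 the difference was only -0.33, against values from -2.70 to -1.61 in the others. Its log2 fold change was -1.80 (SE 0.25, adjusted p = 0.00220 from limma), 3.49-fold, with -2.45 in pools 1 to 3 and -1.31 in pools 4 to 7. The RefSeq promoter table used here has no entry for Upk2.

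The tetraspanin partners of these proteins gave no such signal. Upk1a had a mean of 3.26 ± 0.55 (SD, n = 7) in Lu-neg and 3.24 ± 0.28 in Lu-pos, and Upk1b of 3.33 ± 0.33 and 3.12 ± 0.13. Both means lie under the background level in both populations, so that no change could be read for either (adjusted p = 0.970 and 0.339 from limma). Single arrays rose above background, Upk1a reaching 4.17 in the Lu-neg array of pool 4. Upk3b, a mesothelial and urothelial relative of Upk3a, had means of 3.92 and 3.95, just above background, and a log2 fold change of 0.03 (SE 0.09). The mesothelial markers Msln, Wt1 and Lrrn4 were under background in both populations.

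Of 11 other measured genes of urothelial differentiation, 0 were higher and 3 lower in Lu-pos by limma, where 7.19% of all genes were lower. Foxa1, a pioneer factor that also marks hormone-sensing mammary cells, fell by 1.39 on the log2 scale (SE 0.19). The keratin gene Krt7 fell by 0.59 (SE 0.12), and Pparg, a nuclear receptor gene that drives urothelial differentiation, was also called lower, but its means of 3.74 and 3.27 lie at and under background, and the call was lost with the housekeeping scaling (adjusted p = 0.0663 from limma). Krt20, Snx31 and Psca, which are expressed in mature urothelium, were under background in both populations. The median log2 fold change of the 11 genes was 0.04.

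**Figure D2:**
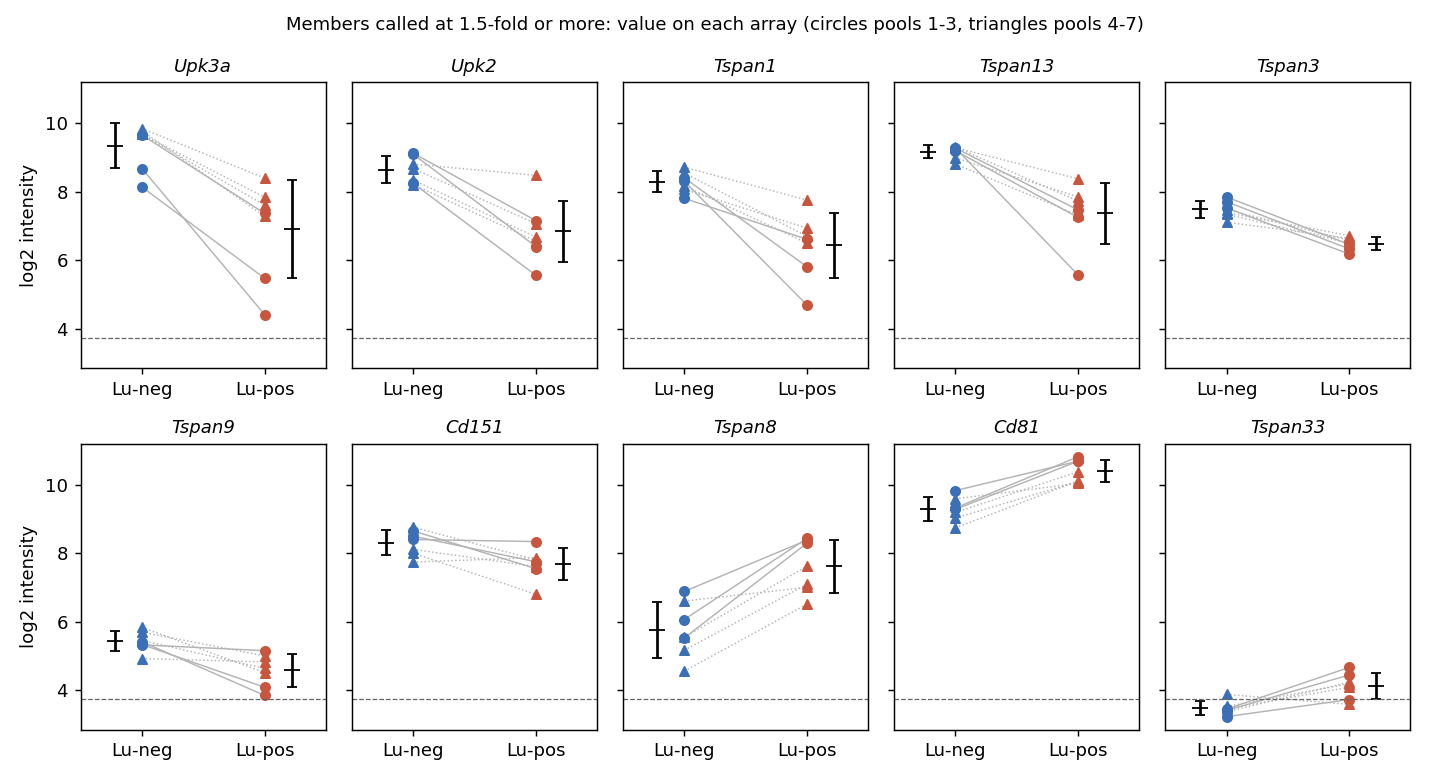
Log2 intensity on each array for the 10 members called with a change of at least 1.5-fold, Lu-neg in blue and Lu-pos in red, with lines joining arrays of 1 pool (solid lines and circles for pools 1 to 3, dotted lines and triangles for pools 4 to 7). Black bars show the mean and SD of 7 arrays, and the dashed line is the background level of 3.73. Tspan1, Tspan13, Tspan3 and Cd81 show no overlap between the populations.

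Tspan1 and Tspan13 had the largest falls among the tetraspanins proper. Tspan1, an epithelial tetraspanin, lay between 7.81 and 8.72 with a median of 8.31 in Lu-neg and between 4.69 and 7.76 with a median of 6.61 in Lu-pos. Its populations were parted by 0.05, the highest Lu-pos array coming from pool 7 and the lowest Lu-neg array from pool 2. The log2 fold change was -1.86 (SE 0.29, adjusted p = 0.00406 from limma), 3.63-fold, with -2.47 in pools 1 to 3 and -1.40 in pools 4 to 7.

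Tspan13, a tetraspanin known to modulate a neuronal calcium channel, was even across Lu-neg arrays, from 8.81 to 9.31 with a median of 9.28. In Lu-pos it spread from 5.57 to 8.38 with a median of 7.47, and the array of pool 3 stood 1.68 under the next. The log2 fold change was -1.80 (SE 0.28, adjusted p = 0.00402 from limma), 3.48-fold. It was -2.49 in pools 1 to 3 and -1.28 in pools 4 to 7. The changes of Tspan1 and Tspan13 were of like size, Tspan13 having the smaller fall in 4 of 7 pools, with a difference between their changes from -0.75 to 0.79.

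Markers of hormone-sensing cells also varied across Lu-pos arrays. The summed level of the 7 measured markers, on the log2 scale, was between 10.52 and 10.96 in Lu-neg and between 8.44 and 9.96 in Lu-pos. The Lu-pos array of pool 3 had the lowest sum and also the lowest Upk3a, Upk2, Tspan1, Tspan13 and Tspan9. The Lu-pos array of pool 7 had the highest sum and the highest Upk3a, Upk2, Tspan1 and Tspan13. The Lu-pos array of pool 1 did not follow that order, with the third highest sum (9.68) but the second-lowest Tspan1 (5.81) and Upk2 (6.40). Other called falls varied. Among Lu-pos arrays, Tspan17 was lowest in pool 3 and highest in pool 7. Tspan9 was highest in pool 1 (5.15), and Tspan3 was lowest in pool 2 (6.18) and highest in pool 6 (6.72). Cd151 and Cd82 were lowest in pool 4 and Cd9 in pool 1. The part of these markers in the spread of the genes was not tested.

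**Figure D3:**
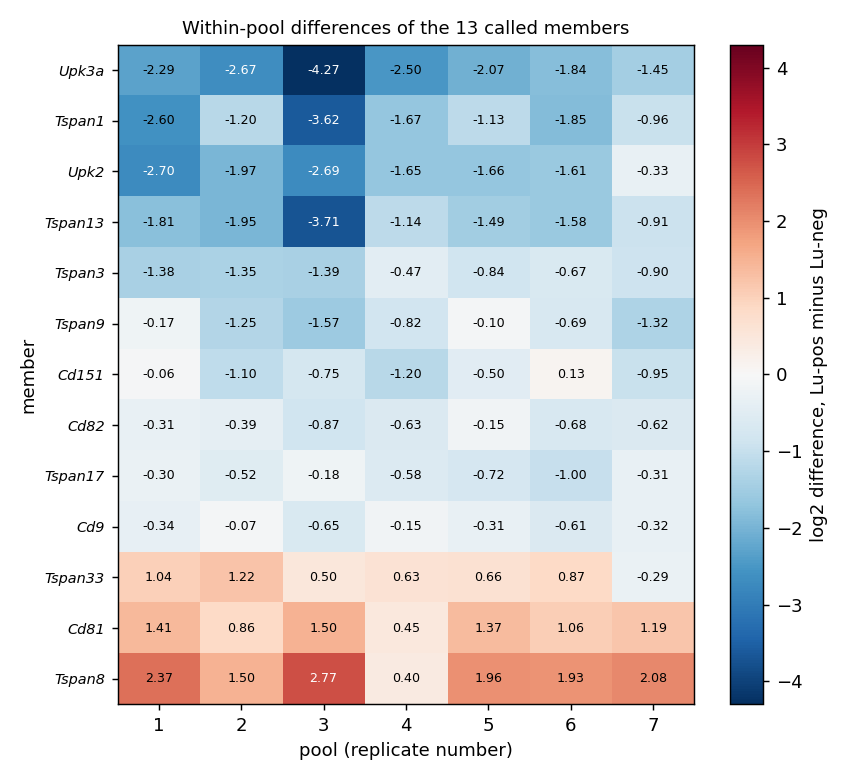
Log2 difference between the Lu-pos and the Lu-neg array of each pool (columns, pools 1 to 7) for the 13 called genes (rows), with the value printed in each cell and blue for lower, red for higher in Lu-pos. Pool 3 has the largest falls of Upk3a (-4.27), Tspan13 (-3.71) and Tspan1 (-3.62), and pool 7 the smallest falls of Upk3a (-1.45), Tspan13 (-0.91), Tspan1 (-0.96) and Upk2 (-0.33).

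Tspan3 and Tspan9 fell as well. Tspan3, a tetraspanin of oligodendrocytes and many other cells, lay between 7.11 and 7.85 with a median of 7.48 in Lu-neg and between 6.18 and 6.72 with a median of 6.50 in Lu-pos. The populations were parted by 0.39, and the gene fell 2-fold (SE 0.13, adjusted p = 0.00163 from limma). The fall was deeper in pools 1 to 3 (-1.37) than in pools 4 to 7 (-0.72), a difference that was not tested. Tspan9, known from platelets, ranged from 4.92 to 5.83 with a median of 5.41 in Lu-neg and from 3.84 to 5.15 with a median of 4.63 in Lu-pos. It was lower in 7 of 7 pools, with a difference of only -0.10 in pool 5 and a log2 fold change of -0.85 (SE 0.18, adjusted p = 0.0163 from limma). It was -0.997 in pools 1 to 3 and -0.73 in pools 4 to 7, called in neither set alone (adjusted p = 0.137 and 0.111 from limma).

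Tspan8 moved the other way. It encodes a surface tetraspanin used to mark mammary progenitors, and the study names it among its most modulated genes on these arrays, so that its rise is not independent evidence. Its values ran from 4.55 to 6.88 with a median of 5.54 in Lu-neg and from 6.51 to 8.43 with a median of 7.62 in Lu-pos. The ranges overlapped, because the Lu-neg arrays of pools 2 and 4 exceeded the Lu-pos array of pool 5, but every pool showed a rise. The log2 fold change was 1.86 (SE 0.24, adjusted p = 0.00153 from limma), 3.63-fold, with 2.21 in pools 1 to 3 and 1.59 in pools 4 to 7. Pool 4 had the smallest rise, 0.40, and its Lu-neg array also had the highest summed level of progenitor markers among Lu-neg arrays, 10.60 on the log2 scale. The part of these markers was not tested. The change of Tspan8 exceeded that of Tspan1 by 2.07 to 6.39 on the log2 scale in all 7 pools, a contrast that no shift of whole arrays can alter. Tspan8 rose and Tspan1 fell in every pool, so that the sign of this contrast adds nothing to those results.

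The other 7 Tspan genes outside the branches described further on were not called. Tspan4, found in migrasomes, had a log2 fold change of -0.58 (SE 0.16, adjusted p = 0.0519 from limma), with -0.21 in pools 1 to 3 and -0.85 in pools 4 to 7. Tspan31, which in human sarcomas is amplified beside CDK4, had -0.44 (SE 0.14, adjusted p = 0.0771), with -0.80 and -0.17. Tspan2, a gene of the oligodendrocyte lineage, was higher in 6 of 7 pools by 0.66 on average (SE 0.19, adjusted p = 0.0584), and Tspan6 in 6 of 7 by 0.83 (SE 0.29, adjusted p = 0.109). These 4 genes lie near the threshold or vary widely, and their missed calls do not show equal levels. Tspan11 and Tspan12 had log2 fold changes of 0.10 and 0.02, and Tspan18, an endothelial tetraspanin, was under background.

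Tspan12 assists Fzd4 as a receptor of the ligand Norrin. It was even in both populations, at 6.70 ± 0.19 (SD, n = 7) in Lu-neg and 6.72 ± 0.31 in Lu-pos. Fzd4 itself fell by 1.02 on the log2 scale (SE 0.16, adjusted p = 0.00359 from limma). Its co-receptor gene Lrp5 had a log2 fold change of -0.41 (adjusted p = 0.0957), and the ligand gene Ndp lay at about background in both populations.

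The widely expressed tetraspanins split in direction. Cd81, a tetraspanin found on most cell types, lay between 8.74 and 9.83 with a median of 9.28 in Lu-neg and between 10.04 and 10.82 with a median of 10.38 in Lu-pos. No Lu-pos array was as low as any Lu-neg array, the gap being 0.21. Cd81 rose 2.17-fold, a log2 fold change of 1.12 (SE 0.13, adjusted p = 0.000973 from limma), with 1.26 in pools 1 to 3 and 1.02 in pools 4 to 7. Its smallest rise, 0.45, was in pool 4, which also had the smallest rise of Tspan8.

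Cd151, the tetraspanin that binds the laminin receptors formed by integrins alpha 3 and alpha 6, was lower in Lu-pos in 6 of 7 pools. It ranged from 7.74 to 8.76 with a median of 8.40 in Lu-neg and from 6.80 to 8.34 with a median of 7.75 in Lu-pos, with wide overlap. The log2 fold change was -0.63 (SE 0.17, adjusted p = 0.0389 from limma), and the call was lost when any of pools 2, 3, 4, 5 or 7 was left out (adjusted p up to 0.0996). The call was also lost without the pairing of the arrays (adjusted p = 0.0702), with quantile normalization (0.0585), with the housekeeping scaling (0.0573) and with array weights (0.0543). Within pools 1 to 3 Cd151 had a log2 fold change of -0.64 and within pools 4 to 7 of -0.63, with no call in either set alone.

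Cd82, known as a suppressor of metastasis, fell by 0.52 on the log2 scale (SE 0.10, adjusted p = 0.00899 from limma). Its Lu-neg values, from 5.69 to 6.33, lay above its Lu-pos values, from 5.19 to 5.67, by 0.02. Cd9, the tetraspanin needed by eggs to fuse with sperm, fell by 0.35 (SE 0.09, adjusted p = 0.0372), from a range of 9.78 to 10.20 to a range of 9.46 to 9.80. The call of Cd9 was lost when any of pools 1, 3, 5, 6 or 7 was left out (adjusted p up to 0.0996). With the mean of its probe sets in place of the brighter one, the log2 fold change was -0.19 (adjusted p = 0.219), the dim probe set giving -0.03 at a level under background. The call was also lost with 3 shifts of whole arrays, to 6 housekeeping genes (adjusted p = 0.224), to these without Hprt (adjusted p = 0.137) or to the 75th percentile (adjusted p = 0.0563). In pools 1 to 3 and in pools 4 to 7 alike, the log2 fold change was -0.52 for Cd82 and -0.35 for Cd9, and neither gene was called in either set alone.

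Cd63, a tetraspanin of late endosomes and lysosomes, was at 10.41 ± 0.18 (SD, n = 7) in Lu-neg and 10.32 ± 0.18 in Lu-pos, with a log2 fold change of -0.09 (SE 0.07). Within pools, the change of Cd81 exceeded that of Cd9 by 0.60 to 2.15, that of Cd151 by 0.93 to 2.25 and that of Cd63 by 0.53 to 1.55, in 7 of 7 pools each. Cd81 rose and Cd9 fell in every pool, so that the sign of their contrast follows from those changes. Cd81 rose by at least 0.45 in every pool, whereas Cd151 rose by at most 0.13 and Cd63 by at most 0.09. The signs of these contrasts add nothing either.

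Of 8 measured integrin genes whose products bind tetraspanins, 0 rose and 2 fell in Lu-pos by limma, where 4.35% of all genes rose and 7.19% fell. Itga3, which encodes the alpha 3 chain bound most tightly by Cd151, fell by 0.63 on the log2 scale (SE 0.14, adjusted p = 0.0182), and Itga5, of the fibronectin receptor, by 0.63 (SE 0.14, adjusted p = 0.0184). Itga3 was not called without pool 1 (adjusted p = 0.0525), and Itga5 neither without pool 3 (adjusted p = 0.0518) nor with the housekeeping scaling (adjusted p = 0.0670). Itga6, Itgb1 and Itgb4, of the laminin receptors of epithelia, had log2 fold changes of -0.18, 0.01 and -0.04.

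Of 12 other surface partners, 6 rose and 1 fell by limma, where 4.35% of all genes rose and 7.19% fell. The rises were those of the tight junction gene Cldn1 (log2 fold change 3.11, SE 0.33), the hyaluronan receptor gene Cd44 (1.93, SE 0.15), Cd47, Igsf3, Hbegf and Icam1. The study already names Cldn1 as higher in Lu-pos on these arrays, so that its rise is not independent evidence. The membrane-bound product of Hbegf associates with Cd9. Icam1 encodes the molecule used for the sort, so that its rise is no finding, and it was not called without any of pools 1, 4, 5, 6 or 7 (adjusted p up to 0.102 from limma). Its RNA lay above background in Lu-neg too, with a mean of 5.51, and was higher in Lu-pos in 6 of 7 pools. The ranges overlapped, with Lu-neg values up to 6.13 and Lu-pos values from 6.02. The membrane protease gene Mmp14 fell by 0.99 (SE 0.18). Igsf8 and Ptgfrn, which encode the closest immunoglobulin-type partners of Cd9 and Cd81, were lower in 6 of 7 pools each but were not called, with log2 fold changes of -0.33 and -0.45 (adjusted p = 0.0546 and 0.101 from limma).

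**Figure D4:**
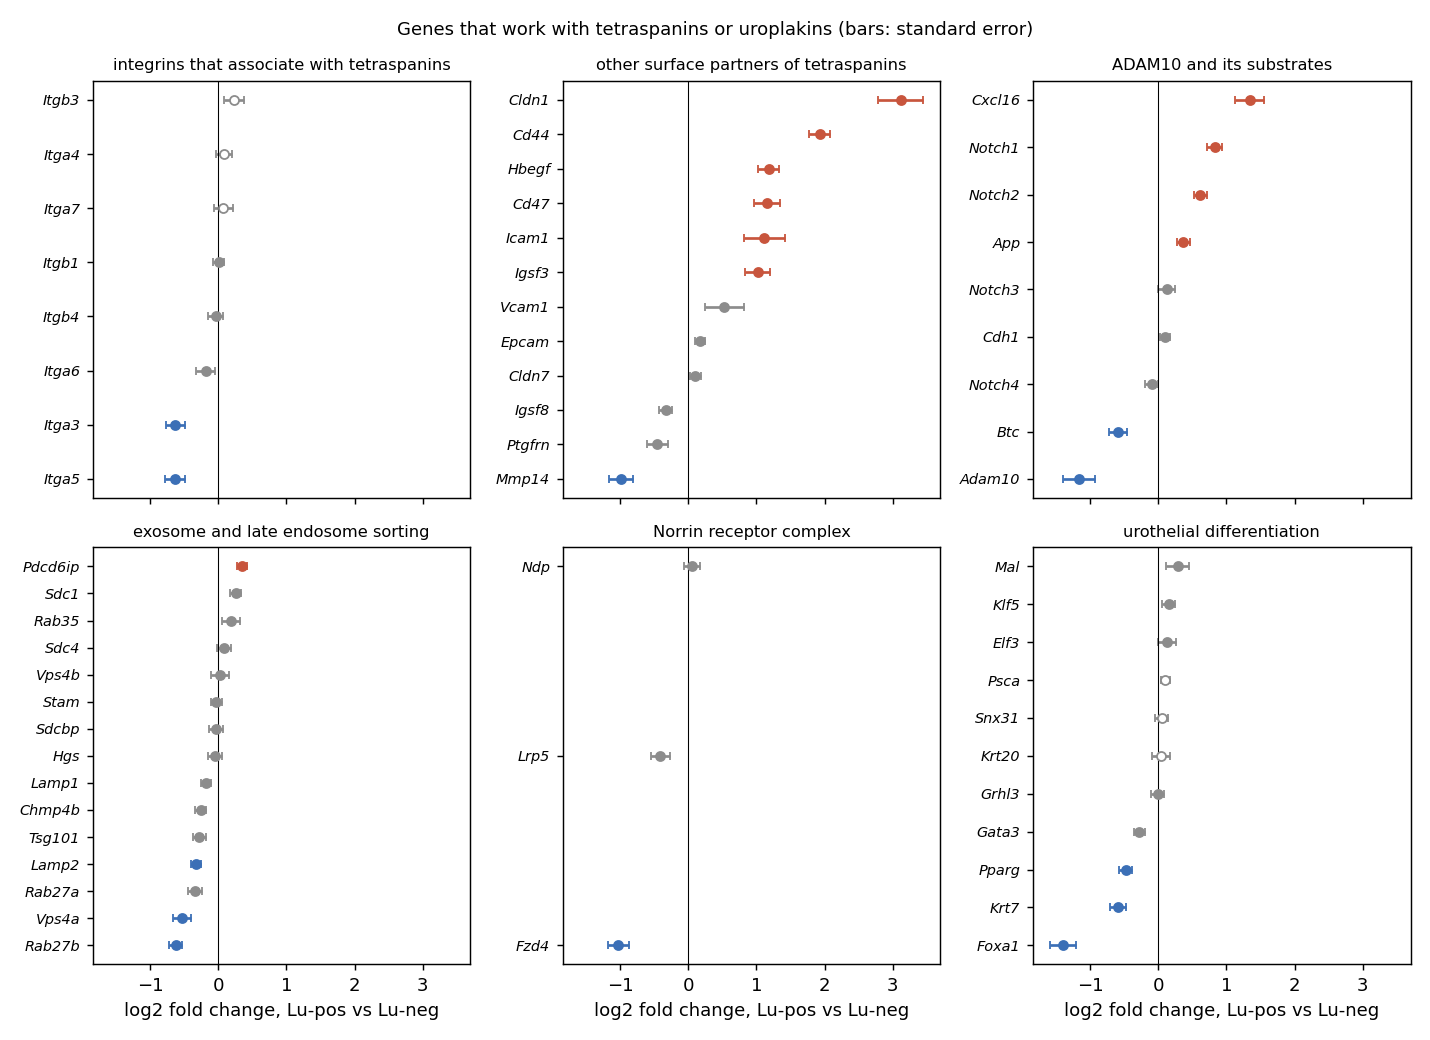
Log2 fold change of Lu-pos relative to Lu-neg, with the standard error as bars, for genes that work with tetraspanins or uroplakins, in 6 lists. Red points were called higher, blue points lower and grey points were not called, and open points lie under background in both populations. Cldn1 (3.11) and Cd44 (1.93) lie farthest to the right, and Foxa1 (-1.39) and Adam10 (-1.16) farthest to the left.

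The TspanC8 tetraspanins have 8 cysteines in the large outer loop and escort the protease ADAM10, which sheds Notch receptors and other surface proteins, to the surface. Of 6 measured, 1 rose, 1 fell and 4 were not called by limma, where 4.35% of all genes rose and 7.19% fell. Tspan33 ranged from 3.22 to 3.87 with a median of 3.44 in Lu-neg, and from 3.58 to 4.66 with a median of 4.18 in Lu-pos. Its Lu-neg mean of 3.47 lay under background, so that it counts as above background through Lu-pos alone. Tspan33 was higher in 6 of 7 pools, pool 7 being the exception at -0.29. The log2 fold change was 0.66 (SE 0.16, adjusted p = 0.0270 from limma), and its size is uncertain with Lu-neg values mostly under background. It was 0.92 in pools 1 to 3 and 0.47 in pools 4 to 7, called in neither set alone (adjusted p = 0.0606 and 0.292 from limma). The call was lost when any of pools 1 to 6 was left out (adjusted p between 0.0518 and 0.0744) and held at an adjusted p = 0.00413 without pool 7.

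Tspan17 fell by 0.52 on the log2 scale (SE 0.11, adjusted p = 0.0135 from limma), in 7 of 7 pools, from 6.88 ± 0.46 (SD, n = 7) to 6.37 ± 0.31. Its adjusted p was 0.118 by limma when the pairing was left out and 0.0649 after scaling to housekeeping genes, so that the call was lost in each. Within pools 1 to 3 Tspan17 had a log2 fold change of -0.33 and within pools 4 to 7 of -0.65, with no call in either set alone (adjusted p = 0.354 and 0.0585 from limma). The change of Tspan33 exceeded that of Tspan17 in 7 of 7 pools, by 0.02 to 1.87. In pool 7 both fell, at -0.29 and -0.31. In every other pool Tspan33 rose and Tspan17 fell, so that the sign of this contrast adds nothing to those results. Tspan14, with values from 5.63 to 7.89 in Lu-neg and from 5.83 to 6.68 in Lu-pos, had a log2 fold change of -0.37 (SE 0.21), which was -0.76 in pools 1 to 3 and -0.09 in pools 4 to 7. Tspan5 lay near background with a log2 fold change of 0.17, and Tspan15 (0.29) and Tspan10 (0.06) lay under it in both populations.

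Adam10 was lower in Lu-pos in 7 of 7 pools, with a mean difference past 1 on the log2 scale (log2 fold change -1.16, SE 0.23, adjusted p = 0.0117 from limma). Of 8 genes of its substrates, Notch1 (log2 fold change 0.83, SE 0.11), Notch2 (0.62), the chemokine gene Cxcl16 (1.34, SE 0.21) and App (0.36) rose, and the growth factor gene Btc fell by 0.59 (SE 0.13). By limma 4.35% of all genes rose and 7.19% fell. The study already names Notch1 as higher in Lu-pos on these arrays, so that its rise is not independent evidence. App was not called when any pool but pool 4 was left out (adjusted p up to 0.0964). Btc was not called without any of pools 1, 4, 5 or 6 (adjusted p up to 0.0550) or with the housekeeping scaling (adjusted p = 0.0621). Cdh1, which encodes E-cadherin, had a log2 fold change of 0.10, and Notch3 and Notch4 had 0.12 and -0.09.

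Of 15 measured genes that sort tetraspanins into exosomes and late endosomes, 1 rose and 3 fell by limma, where 11.5% of all genes were called in either direction. Pdcd6ip, which encodes the adaptor ALIX, rose by 0.35 on the log2 scale (SE 0.08). Rab27b, a vesicle-docking GTPase that also serves the uroplakin-carrying vesicles of the bladder, fell by 0.62 (SE 0.10), as did Vps4a (-0.52) and Lamp2 (-0.33). Only the call of Rab27b held without each of the 7 pools. The call was lost without pools 2, 3 or 7 for Pdcd6ip (adjusted p up to 0.0511), without pools 1, 2, 3, 4 or 7 for Vps4a (up to 0.0826) and without pools 3, 5, 6 or 7 for Lamp2 (up to 0.0554). The median log2 fold change of the 15 was -0.05.

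The leukocyte tetraspanins Cd37, Cd53 and Tspan32 were under background in both populations. The highest of their values on any array was 3.59, of Cd53 in the Lu-pos array of pool 2. Of 11 measured immune markers, only Cd68 lay above background, and the defining gene Ptprc was at 3.04 and 2.96. Among other proteins with 4 spans, Tm4sf1 of the L6 family, whose members resemble tetraspanins in shape only, rose by 0.75 on the log2 scale (SE 0.15, adjusted p = 0.0109 from limma). Tm4sf4, Tm4sf5, Tm4sf19 and Tm4sf20 were under background. The retinal tetraspanin genes Rom1 and Prph2 had log2 fold changes of 0.01 and -0.07, Rom1 under background in both populations and Prph2 at about background.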

How the data were processed

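RNA of sorted Lu-neg and Lu-pos cells was hybridised to Affymetrix Mouse Gene 2.1 ST arrays, after amplification of 500 pg per the labels, where the study's methods give a larger amount. The authors deposited log2 RMA values per probe set, made with Affymetrix Expression Console, with versions not given in the sources used here. For its own analysis the study used other software (EASANA), whose values were not used here. RMA subtracts background, equalises the distributions of the arrays and compresses changes near background. The number of arrays limits the precision. Of 41345 probe sets, 23521 carry 1 gene symbol in the platform annotation, 1820 several and 16004 none, and the brightest single-symbol probe set stood for each of 22180 genes. Of the 23521, 23328 matched the RefSeq table of GRCm38.p6.

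The 14 arrays were compared with limma 3.58.1 in R 4.3.3, with the pool as a block and Benjamini-Hochberg adjustment over all genes. The pairing comes from the series' design text and the methods, and the deviations of arrays of 1 pool from their group means correlated at 0.166 to 0.256 in all 7 pools. The smallest exact p over pools is 0.0156. Pools are mixtures of several mice. With the pool as a block, a p-value sets the mean within-pool difference against the spread of such differences between pools. The rule for members and the gene lists were chosen with earlier results of these data known. Values are given in each population for members called at 1.5-fold or more, and in every other list the 2 strongest called rises and falls, with further genes named for their role. Alternatives changed the block, the variance model, the filter, the probe set rule, the scaling and the pools used. Promoter sequences come from RefSeq GRCm38.p6.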

Additional observations from a re-analysis of the deposited data

Results flagged for a closer look

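Within a group of 7 arrays, 5 of 62 groups of member values had a highest or lowest array far from its nearest neighbour by Dixon's test, where chance gives about 1 in 20. The Lu-pos array of pool 3 was lowest for Tspan13 at 5.57, with the next at 7.25, and highest for Upk1a at 3.82, with the next at 3.30. The Lu-neg array of pool 1 was highest for Cd37 at 3.32, with the next at 3.13, and lowest for Tspan5 at 3.03, with the next at 3.63. The Lu-neg array of pool 2 was highest for Tspan15 at 3.97, with the next at 3.41. All values are log2 intensities, and those of Cd37, Tspan15 and Upk1a come from genes under background on average.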

How the results depend on the processing

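Of the 13 called members, Upk3a, Upk2, Tspan1, Tspan13, Tspan3, Tspan8 and Cd81 kept their call under each of the 20 alternatives, and 0 of 260 values reversed. The calls were lost in 47 of the 260, mainly of Cd9, Cd151, Tspan33 and Tspan17. With the housekeeping scaling 6 members were higher (3 as reported), and without Hprt, itself called lower and chosen after seeing the data, 4 were. Of all called genes 64.5% were higher with that scaling, 44.6% without Hprt and 43.6% with the 75th percentile, beside 37.7%. The count of lower members, 10 as reported, was 5 with the methods' t-test after Benjamini-Hochberg adjustment at 1.5-fold, 5 in pools 1 to 3 alone and 6 in pools 4 to 7 alone, with fewer samples in the last 2. Leaving out 1 pool gave 2 to 3 higher and 8 to 10 lower members. Without the replicate block 4 were higher and 8 lower, Tspan2 being gained and Cd151 and Tspan17 lost, and no other member's call changed with the pairing. Of the 18 uncalled members, 5 were called under some alternative and 6 changed sign. RMA signal near background limits Tspan33, Tspan5 and Upk3b, and 8 members gave no level above it.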
